A study of Capra hircus with 29 samples.

Results

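The genes described here are elongin B, elongin C and the core parts of the cullin-RING ubiquitin ligases in goat oocytes. They were chosen by gene symbol (TCEB1, TCEB2, CUL1, CUL2, CUL3, CUL5, RBX1, SKP1, VHL and DDB1), and all entries of a repeated symbol were kept. This gave 17 genes of the 21343 in the expression table, since 5 of the 10 symbols were carried by more than 1 gene. Expression was given as FPKM, that is fragments scaled by transcript length and by library size, so levels can be compared between genes per length. One of the 2 TCEB2 genes, ENSCHIG00000024274, was picked because it differed between HMO and LMO in these data, so its values in those groups are a description without a test.

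The oocytes came from Ji'ning grey goats of a high fertility group and a low fertility group, which the labels define by litter size. In the high fertility group HLO, HMO and HSO stand for oocytes of the large, the medium and the small follicles, and LLO, LMO and LSO are the same stages in the low fertility group. There were 5 samples in each group except HSO, which had 4 (replicates 1, 3, 4 and 5), giving 29 samples. Each sample held a few oocytes that the paper describes as pooled by stage in the high fertility group, no drug or genetic change was applied, and ages are not given in the sources used here. Which goats stand behind a sample is not recorded, so p-values measure the spread between these samples only.

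Ubiquitin ligases of the cullin family mark proteins for breakdown or for a change of function. A cullin serves as the scaffold. At one end it holds the RING protein RBX1, which recruits a ubiquitin-charged E2 enzyme, and at the other end an adaptor that holds a substrate receptor. CUL1 uses the adaptor SKP1 with F-box receptors, CUL2 and CUL5 use the pair of elongin B (TCEB2) and elongin C (TCEB1) with BC-box receptors, CUL3 binds BTB proteins directly, and CUL4 uses DDB1. VHL is the CUL2 receptor that recognises hydroxylated HIF alpha subunits in normal oxygen. Elongins B and C also bind elongin A in the elongin complex, which supports transcript elongation. In oocytes, protein breakdown by ubiquitin ligases is known to control meiotic arrest and the turnover of maternal proteins.

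The FPKM sums ranged from 222697 in LMO replicate 2 to 490048, and the next lowest was 347806. Of the oocyte markers, GDF9 (median 246 FPKM) and BMP15 (median 167 FPKM) were above 0 in all 29 samples. NLRP5 was at most 0.615 FPKM. Of the 2 DAZL genes, 1 lay between 0.0441 and 4.97 FPKM and the other was listed at 0 throughout. The 8 granulosa marker genes in the table summed to between 0.133 and 7.48 FPKM in a sample, and AMH was listed at 0 in all 29. The theca and stroma list summed to between 5.32 and 43.4 FPKM, with COL1A1 at most 0.0391 FPKM but DCN (1.95 to 16.7 FPKM), ACTA2 (0.361 to 27.5 FPKM) and COL1A2 (0.235 to 4.29 FPKM) above 0 in all 29 samples, and the erythroid and endothelial list to between 0.125 and 2.72 FPKM, with CDH5 at 0. The leukocyte list summed to between 2.36 and 671 FPKM. The high sums came from CD52, at 667 FPKM in LLO replicate 3 and 317 FPKM in LMO replicate 3. LCP1 was between 1.48 and 5.35 FPKM in all samples, whereas CD14 and TYROBP were listed at 0 in all samples and PTPRC was at most 0.0538 FPKM.

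The core genes covered the whole range of expression, as the map of log2(FPKM + 1) by sample shows. Elongin C, SKP1 and RBX1 were among the most abundant transcripts of the oocyte. TCEB1 ENSCHIG00000015198 had a mean of 1425 ± 288 FPKM (SD, n = 29), at percentile 99.8 of all genes, SKP1 ENSCHIG00000015329 had a mean of 1217 ± 907 FPKM, and RBX1 had a mean of 930.0 ± 373 FPKM. Elongin B followed with 192 ± 63.1 FPKM for TCEB2 ENSCHIG00000015237, and ENSCHIG00000010719, the higher of the 2 genes with the symbol CUL1, had 118 ± 41.7 FPKM. CUL3 (5.59 ± 2.80 FPKM) and CUL5 (3.56 ± 1.77 FPKM) were lower, and the receptor VHL and both CUL2 genes were at most 0.383 FPKM in any sample. Of the 17 genes, 13 exceeded 0.5 FPKM in 4 or more of the 29 samples and could be tested. The other 4 were VHL, both CUL2 genes and TCEB1 ENSCHIG00000008219, which was listed at 0 in all 29.

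**Figure D1:**
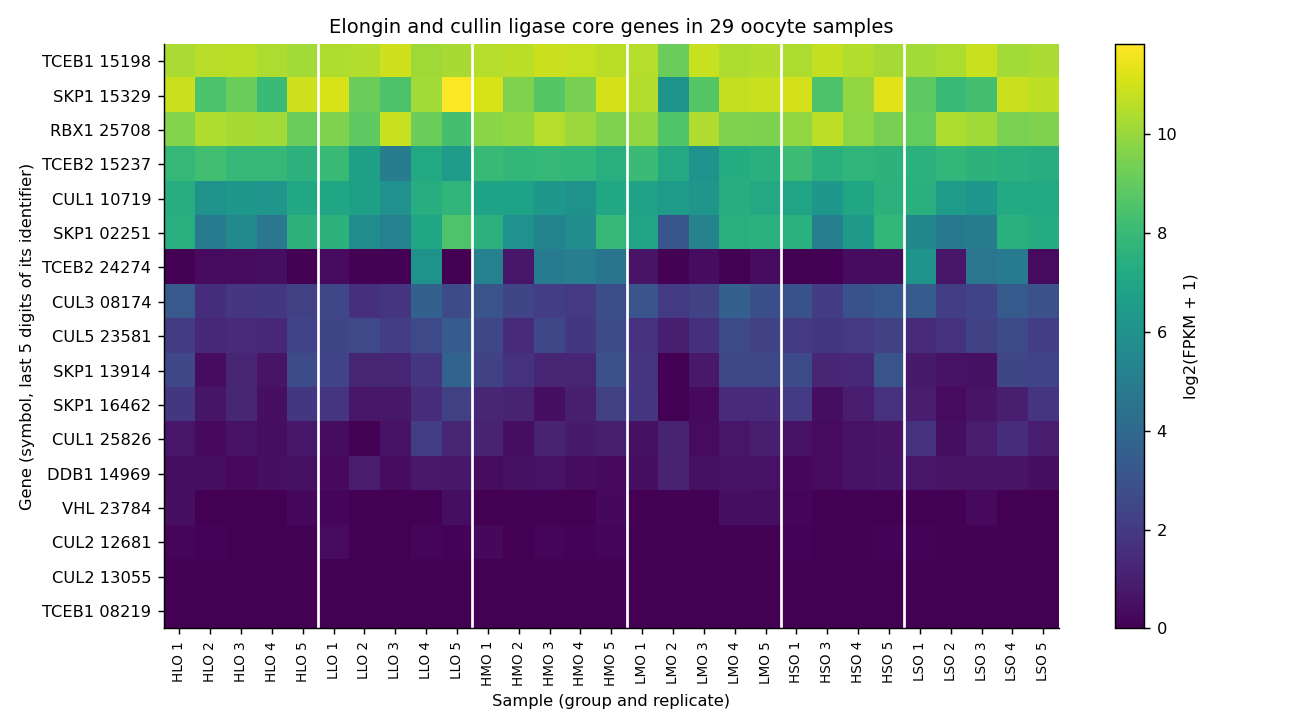
Rows are the 17 core genes, ordered by mean FPKM, columns are the 29 samples by group and replicate, and the colour is log2(FPKM + 1). TCEB1, SKP1 and RBX1 form the bright rows, VHL, CUL2 and a second TCEB1 gene the dark ones, and the second TCEB2 gene is bright in only 8 samples.

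Elongin B is the partner that holds elongin C in the adaptor pair. The gene that the table describes as elongin B, TCEB2 ENSCHIG00000015237, was present in all 29 samples. In HLO it was at 232, 303, 232, 232 and 195 FPKM for replicates 1 to 5, and in LLO at 247, 106, 30.0, 144 and 88.5 FPKM. LLO replicates 2 to 5 lay below all HLO samples, and LLO replicate 1 lay within the HLO range, so the groups overlapped. The mean was 239 ± 39.6 FPKM (SD, n = 5) in HLO and 123 ± 80.5 FPKM (SD, n = 5) in LLO. The difference was 1.23 on the log2 scale (SE 0.555, 95% interval 0.03 to 2.42, unadjusted p = 0.0447, adjusted p = 0.828 in limma's test). It was 0.80 without LLO replicate 3, the sample with the highest CD52 and the lowest BMP15 (67.6 FPKM), and the part of these in the difference was not tested. Most markers of the oocyte list were low in that sample. Besides BMP15, GDF9 (90.5 FPKM, median 246) and ZP2 (114 FPKM, median 233) were below their medians over all samples. ZP3 (404 FPKM, median 1274), ZP4 (127 FPKM, median 377), OOEP (7.86 FPKM, median 106) and NLRP5 (0.0776 FPKM, median 0.274) were as well. ZAR1 (114 FPKM, median 72.9), FIGLA (10.7 FPKM, median 7.58) and DAZL ENSCHIG00000017877 (1.86 FPKM, median 0.888) were above theirs. In pooled oocytes a lower level in each oocyte and fewer oocytes with the transcript cannot be told apart.

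In medium follicles elongin B was at 258, 228, 233, 229 and 175 FPKM in HMO and at 265, 138, 64.3, 161 and 181 FPKM in LMO. The lowest was LMO replicate 3, which had the second high CD52 value and the lowest OOEP level of all samples (6.24 FPKM), and the groups overlapped. In that sample GDF9 (130 FPKM), ZP2 (153 FPKM) and BMP15 (118 FPKM) were also below their medians. The same held for ZP3 (521 FPKM), ZP4 (176 FPKM) and NLRP5 (0.248 FPKM). ZAR1 (105 FPKM), FIGLA (8.89 FPKM) and DAZL ENSCHIG00000017877 (1.22 FPKM) were above theirs. The log2 difference was 0.59 (SE 0.378, adjusted p = 0.653 in limma's test), and 0.30 without LMO replicate 3. In small follicles the values were 278, 179, 210 and 197 FPKM in HSO replicates 1, 3, 4 and 5 and 189, 228, 199, 183 and 164 FPKM in LSO. These groups overlapped widely, with a log2 difference of 0.15 (SE 0.270, 95% interval -0.44 to 0.75). The order of the group means was HLO, HMO, HSO, LSO, LMO and LLO, and the ranges of all neighbours in that order overlapped.

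The second TCEB2 gene, ENSCHIG00000024274, carries the symbol but no description in the table. It had either a clear level or almost none. In HMO it was at 36.1, 0.629, 28.2, 32.0 and 23.0 FPKM for replicates 1 to 5, and in LMO at 0.564, 0, 0.307, 0 and 0.301 FPKM. All HMO samples lay above all LMO samples, although HMO replicate 2 was close to LMO replicate 1, and across all genes tested there 1.7% had groups that did not overlap. The log2 difference was 3.80, and no error or test is given because the gene was picked from this contrast.

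High samples were not confined to HMO. The group mean was 24.1 ± 27.8 FPKM (SD, n = 5) in LSO and 24.0 ± 13.9 FPKM (SD, n = 5) in HMO. In LLO only replicate 4 was high, at 67.2 FPKM, and the others were at 0.269 FPKM or 0. In LSO replicates 1, 3 and 4 were at 68.3, 23.7 and 27.2 FPKM and replicates 2 and 5 at 0.666 and 0.289 FPKM. In HLO the highest value was 0.357 FPKM and in HSO 0.311 FPKM. Thus high samples were found in HMO, LLO and LSO, in 8 samples in all (23.0 to 68.3 FPKM), and the other 21 samples were at 0.666 FPKM or less. The log2 difference of HSO and LSO was -3.14 (SE 1.08, unadjusted p = 0.0144, adjusted p = 0.880 in limma's test), opposite in direction to that of HMO and LMO. The gene entered that test only through its LSO values, so that its p supports nothing on its own. In HLO and LLO it did not reach the minimum level for a test.

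Among the 21 low samples, 9 were listed at 0, 9 lay between 0.269 and 0.357 FPKM, and 3 between 0.564 and 0.666 FPKM. The upper band had a median 2.14 times that of the lower one. VHL showed the same kind of bands, with 5 samples between 0.161 and 0.224 FPKM, 4 between 0.359 and 0.383 FPKM and the remaining 20 at 0. The table holds no counts, so how many fragments such levels rest on cannot be read from it.

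**Figure D2:**
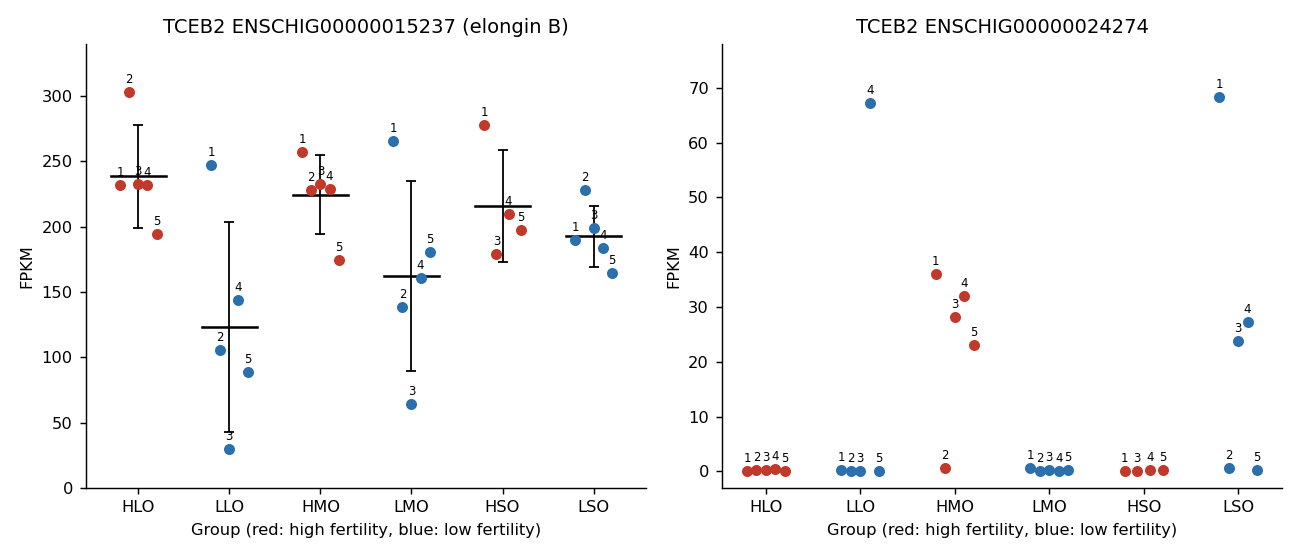
Each point is 1 sample, labelled with its replicate number, in FPKM on a linear axis. On the left the lines and bars give mean and SD of each group for elongin B, which lies lowest in LLO replicate 3 at 30.0 FPKM. On the right the second TCEB2 gene is high in 8 samples of HMO, LLO and LSO and close to 0 in the other 21.

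In the 8 high samples the second gene made up 10.7 to 31.8% of the summed FPKM of both TCEB2 genes, with the largest shares in LLO replicate 4 and LSO replicate 1 (26.5%). Elsewhere its share did not exceed 0.475%. Elongin B itself stood between 144 and 258 FPKM in those 8 samples. The log2(FPKM + 1) values of both genes had a Pearson r of 0.174 and a Spearman rho of 0.240 over the 29 samples. Since the authors used uniquely placed reads alone, reads that fit both genes equally would be missing from each, and how much of either level is affected is uncertain.

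Genes whose pattern was most like each TCEB2 gene were taken as the 5 with the highest Pearson r over the 29 samples among 9692 genes. For ENSCHIG00000024274 these were RPS23 ENSCHIG00000006745 (r = 0.990), RPS15A ENSCHIG00000011047 (0.989), HSD17B2 (0.982), RPL19 ENSCHIG00000011685 (0.980) and MYBPC2 (0.980). Spearman's rho was lower, from 0.593 for RPL19 to 0.796 for MYBPC2. In each of these 5 genes the 8 highest samples were the same 8 samples as for ENSCHIG00000024274. HSD17B2, a steroid dehydrogenase that inactivates oestradiol and testosterone, was between 7.44 and 41.7 FPKM in those samples, and elsewhere it did not exceed 0.143 FPKM. The 3 ribosomal protein symbols were carried by 9, 8 and 6 genes of the table. Their reads may fit other genes of the same symbol, so these levels are uncertain, whereas HSD17B2 and MYBPC2 had 1 gene each.

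Elongin B had other neighbours. The most alike were NDUFA3 ENSCHIG00000011150, a subunit of respiratory complex I (r = 0.948, rho = 0.885), RPL28 ENSCHIG00000025540 (r = 0.915, rho = 0.786), LOC102188434 ENSCHIG00000012976 (r = 0.898, rho = 0.856), SYCE3, a synaptonemal complex protein (r = 0.877, rho = 0.841), and RPS10 ENSCHIG00000026089 (r = 0.866, rho = 0.623). The points share their libraries and their overall composition, so these values describe a pattern only.

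Elongin C, which touches both the cullin and the receptor, differed little between samples. TCEB1 ENSCHIG00000015198 was between 1153 and 1564 FPKM in HLO, 1123 and 1989 in LLO, 1451 and 1896 in HMO, 1206 and 1702 in HSO, and 1149 and 1806 in LSO. In LMO it was at 562 FPKM in replicate 2, the sample with the lowest FPKM sum, and between 1345 and 1847 FPKM in the other 4. The highest sample of all was LLO replicate 3, where elongin B was lowest. Group means ran from 1649 ± 181 FPKM (SD, n = 5) in HMO down to 1333 ± 472 FPKM (SD, n = 5) in LMO, and neighbours overlapped throughout. The log2 differences were -0.05 for large, 0.40 for medium and 0.06 for small follicles, with adjusted p values from 0.720 to 0.976 in limma's test. The ratio of elongin B to elongin C FPKM had a median of 0.149 and ran from 0.0151 to 0.246.

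Of the cullin scaffolds, the highest level was that of a gene with the symbol CUL1, ENSCHIG00000010719, which has no description, whereas the gene described as cullin 1, ENSCHIG00000025826, was at 0.845 ± 0.711 FPKM (SD, n = 29), below CUL3 and CUL5. Which of them is the CUL1 locus could not be checked here. The first exceeded the second by 48.8 to 2310 times in a sample (median 180). CUL1 ENSCHIG00000010719 ranged from 61.6 to 210 FPKM, with both ends in LLO, and its log2 differences were -0.38, -0.16 and 0.03 for large, medium and small follicles. CUL1 ENSCHIG00000025826 was at 0.503, 0.285, 0.469 and 0.526 FPKM in HSO and at 2.36, 0.374, 0.909, 1.83 and 0.933 FPKM in LSO. The LSO samples other than replicate 2 were above all HSO samples. The log2 difference was -0.59 (SE 0.254, 95% interval -1.15 to -0.03, unadjusted p = 0.0406, adjusted p = 0.880 in limma's test). In HSO only replicates 1 and 5 exceeded 0.5 FPKM, so the gene needed its LSO values to reach the minimum level. Its p therefore supports nothing on its own. The highest LSO values were in replicates 1 and 4, where TCEB2 ENSCHIG00000024274 was also high, and its highest value of all samples, 3.42 FPKM, was in LLO replicate 4, another sample with a high TCEB2 ENSCHIG00000024274 level. Other samples differed. LSO replicate 3, also high for that TCEB2 gene, was below LSO replicate 5, which was not. LLO replicate 5 and LMO replicate 2, where the TCEB2 gene was at 0, had 1.41 and 1.28 FPKM of the CUL1 gene. Over the 29 samples both genes had a Pearson r of 0.711 and a Spearman rho of 0.392.

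CUL3, the scaffold for BTB proteins, lay between 1.97 and 11.6 FPKM, and its group means ran from 6.73 ± 2.85 FPKM (SD, n = 5) in LSO to 3.96 ± 2.74 FPKM (SD, n = 5) in HLO. The log2 differences were -0.30, -0.28 and -0.05, each smaller than its SE (0.467, 0.362 and 0.376). CUL2 was close to absent from the table in both its genes. The gene described as cullin 2, ENSCHIG00000012681, was at most 0.261 FPKM (LLO replicate 1) and listed at 0 in 4 samples, and ENSCHIG00000013055 was above 0 in only 4 samples, with at most 0.0159 FPKM.

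CUL5, which works with elongins B and C and SOCS-box receptors, was at 3.16, 1.53, 1.76, 1.53 and 4.19 FPKM in HLO and at 4.51, 5.15, 3.39, 5.13 and 9.50 FPKM in LLO. The LLO samples were higher except that HLO replicate 5 lay above LLO replicate 3. The log2 difference was -0.93 (SE 0.372, 95% interval -1.73 to -0.13, unadjusted p = 0.0259, adjusted p = 0.828 in limma's test). In medium follicles it was at 4.70, 1.77, 4.73, 2.84 and 5.41 FPKM in HMO and at 2.23, 0.974, 2.11, 5.54 and 3.85 FPKM in LMO, a log2 difference of 0.36 (SE 0.361), and in small follicles the difference was -0.02 (SE 0.303). Among the 12 members tested, with TCEB2 ENSCHIG00000024274 left out, CUL5 had the smallest p for a different fertility contrast between stages (unadjusted p = 0.0255, adjusted p = 0.532 in limma's F-test).

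RBX1, the RING protein shared by CUL1 to CUL4, was at 806, 1379, 1254, 1185 and 567 FPKM in HLO and at 755, 477, 1831, 577 and 324 FPKM in LLO. LLO held both the highest and the lowest RBX1 level of all 29 samples, in replicates 3 and 5. The high fertility mean was the larger at each stage (1038 against 793, 1014 against 833 and 1040 against 884 FPKM), with log2 differences of 0.58, 0.36 and 0.25. Each was close to its SE (0.529, 0.353 and 0.347), and adjusted p values were 0.828, 0.766 and 0.912 in limma's test. The first difference was 0.95 without LLO replicate 3 and 0.33 without LLO replicate 5.

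SKP1, the adaptor of the F-box ligases, had 4 genes. ENSCHIG00000015329, which RefSeq lists as SKP1, held between 89.5 and 92.2% of their summed FPKM in a sample. ENSCHIG00000002251, listed as LOC102174738 in RefSeq, was lower by a factor of 8.50 to 12.3 and followed it closely (r = 0.995 over 29 samples), and ENSCHIG00000013914 and ENSCHIG00000016462 were at most 12.5 and 3.72 FPKM. Reads may fit more than 1 gene of the same symbol, so the levels of the smaller genes are uncertain.

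SKP1 ENSCHIG00000015329 varied more within groups than between them. It was at 1867, 358, 574, 269 and 1991 FPKM in HLO, at 2237, 585, 366, 1186 and 3642 FPKM in LLO and at 2228, 734, 418, 666 and 2142 FPKM in HMO. In LMO it was at 1416, 68.1, 424, 1706 and 1832 FPKM, in HSO at 2142, 365, 967 and 2510 FPKM, and in LSO at 483, 247, 328, 1902 and 1637 FPKM. Replicate 5 was 1 of the 2 highest samples in each of the 6 groups, and replicate 1 in 4 of them. Group means ran from 1603 ± 1351 FPKM (SD, n = 5) in LLO to 919 ± 787 FPKM (SD, n = 5) in LSO. The log2 differences were -0.67, 0.58 and 0.84, all smaller than or close to their SE (0.756, 0.846 and 0.735), and the second became -0.23 without LMO replicate 2.

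The main direction of variation over all samples, the first principal component of log2(FPKM + 1), held 39.0% of the variance. The 4 SKP1 genes had a Pearson r with it of 0.847 to 0.930, CUL1 ENSCHIG00000010719 of 0.798 and CUL3 of 0.763. RBX1 went the other way (r = -0.460), and elongin B (0.252) and elongin C (-0.189) followed it little. Over all genes tested the median size of r was 0.469. Between members, CUL1 ENSCHIG00000010719 had an r of 0.814 with CUL3 and of -0.745 with RBX1, and RBX1 had an r of 0.722 with elongin C. All values are over the same 29 libraries, so they show which genes vary together between libraries and nothing about a shared control.

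**Figure D3:**
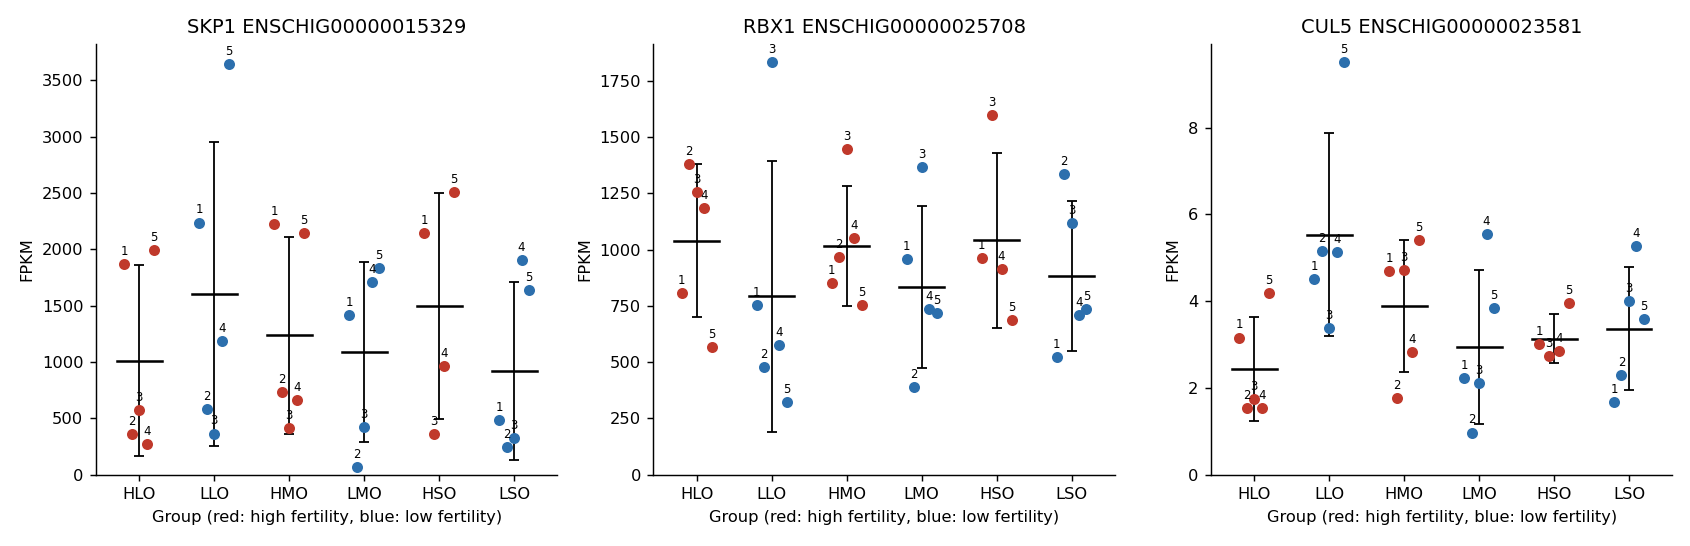
Each point is 1 sample with its replicate number, in FPKM, and lines and bars give mean and SD of each group. SKP1 reaches 3642 FPKM in LLO replicate 5 and falls to 68.1 FPKM in LMO replicate 2, RBX1 is highest in LLO replicate 3 (1831 FPKM), and CUL5 is higher in LLO than in all but 1 HLO sample.

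DDB1, the adaptor of CUL4, was low. It lay between 0.197 and 1.17 FPKM, with the highest value in LMO replicate 2, and was above 0.5 FPKM in 10 of the 29 samples. Group means ran from 0.598 ± 0.325 FPKM (SD, n = 5) in LMO to 0.364 ± 0.106 FPKM (SD, n = 5) in HMO, and the ranges of neighbours overlapped. It reached the level for a test in small follicles only, where the log2 difference was -0.15 (SE 0.140, adjusted p = 0.884 in limma's test). The receptor VHL was listed at 0 in 20 of 29 samples and was at most 0.383 FPKM.

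Over all these genes, no member passed an adjusted p of 0.05 between the fertility groups. In large follicles it was 0 of 11 tested, beside 0.0% of all 8328 genes, in medium follicles 0 of 11 beside 0.0715% of 8390 genes, and in small follicles 0 of 13 beside 0.0119% of 8376 genes, by limma with Benjamini-Hochberg adjustment. At an unadjusted p of 0.05 in limma's test there were 2, 0 and 2 members, where 4.14%, 8.67% and 4.41% of all genes passed. The exact Wilcoxon test gave 1 member in large follicles, beside 206 of all 8328 genes, and 0 members in medium and in small follicles. ENSCHIG00000024274 is left out of the counts for medium follicles, for stages and for the interaction. It is 1 of the 2 members counted in small follicles, where its p supports nothing. The other is CUL1 ENSCHIG00000025826, which also needed its LSO values to reach the minimum level. The median log2 difference of the members was -0.32, 0.36 and 0.06, against -0.09, -0.07 and -0.00609 for all genes. Positive differences were found for 2 of 11, 9 of 11 and 8 of 13 members, and the 4 SKP1 genes, which vary together, were all negative in large and all positive in medium and small follicles. Between large, medium and small follicles 0 of 12 members passed the adjusted p of 0.05 (0.0% of 9692 genes), with 0 at an unadjusted p of 0.05 (1.66% of all), and for the interaction it was 0 (0.0% of all) with 1 at an unadjusted p (7.89% of all).

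**Figure D4:**
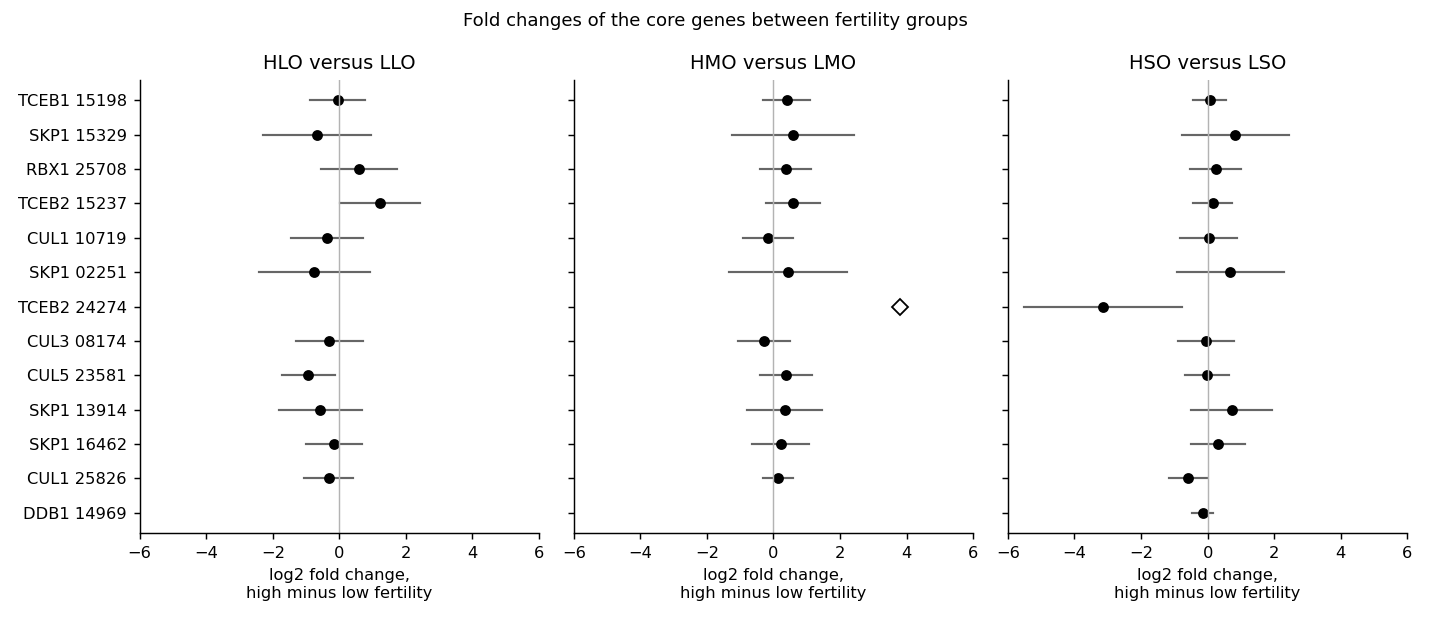
Points are log2 fold changes of log2(FPKM + 1), high minus low fertility, with 95% intervals as lines, for the 13 genes tested over all samples. The open diamond marks TCEB2 ENSCHIG00000024274 between HMO and LMO (3.80), the contrast it was picked from. Most intervals include 0, and no gene shown with an interval passes the adjusted p of 0.05.

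The other genes of the pathway were taken from 9 lists by role, and no gene of any list passed an adjusted p of 0.05 in any of the comparisons. Of further cullins and their RING partners, 6 of 8 were tested. The most abundant were ANAPC11, the RING subunit of the anaphase-promoting complex, at 153 ± 109 FPKM (SD, n = 29), and RNF7, the RING protein that serves CUL5, at 31.6 ± 16.3 FPKM. Elongin A (TCEB3), the third subunit of the elongin complex, was at 0.432 to 1.13 FPKM in HMO and 0.728 to 3.67 FPKM in LMO, a log2 difference of -0.63 (SE 0.288, adjusted p = 0.571 in limma's test). The list medians were -0.06, -0.10 and -0.27 on the log2 scale for large, medium and small follicles. An unadjusted p of 0.05 in limma's test was reached by 0, 1 and 0 genes (4.14%, 8.67% and 4.41% of all genes).

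Cullins are switched on by attachment of NEDD8 and switched off by the COP9 signalosome. NEDD8 itself was at 852 ± 335 FPKM (SD, n = 29), close to RBX1, and SENP8, a protease that acts on NEDD8, at 139 ± 118 FPKM. None of the 9 neddylation genes tested in each fertility comparison reached an unadjusted p of 0.05 in limma's test (4.14%, 8.67% and 4.41% of all genes did). The list medians were -0.28, 0.04 and 0.24. In the COP9 list all 13 genes were tested. COPS9, its small subunit, had the highest level (436 ± 169 FPKM), followed by COPS6 (105 ± 64.6 FPKM). COPS9 was at 458 to 758 FPKM in HMO and 290 to 433 FPKM in LMO, so that the groups did not overlap, as for 1.7% of all genes tested there, but its log2 difference of 0.68 (SE 0.284) gave an adjusted p = 0.541 in limma's test. The list medians were -0.11, 0.09 and 0.08. An unadjusted p of 0.05 in limma's test was reached by 0, 1 and 0 COP9 list genes (4.14%, 8.67% and 4.41% of all genes).

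The E2 enzymes hand ubiquitin to the ligase. UBE2D3 ENSCHIG00000025487 was the highest of them at 1627 ± 652 FPKM (SD, n = 29), followed by another gene of the same symbol, ENSCHIG00000000192, at 21.0 ± 7.70 FPKM. Since 5 genes carry this symbol, these levels are uncertain. CDC34, the E2 that works with SCF ligases, was at 0.799 to 2.78 FPKM in HMO and 1.62 to 7.36 FPKM in LMO, a log2 difference of -0.75 (SE 0.331, adjusted p = 0.563 in limma's test). UBE2D1 was at 1.81 to 7.31 FPKM in HSO and 4.26 to 13.1 FPKM in LSO, a log2 difference of -0.92 (SE 0.392, adjusted p = 0.880). The list medians were 0.14, -0.07 and -0.16. An unadjusted p of 0.05 in limma's test was reached by 0, 1 and 1 of the 10 genes tested (4.14%, 8.67% and 4.41% of all genes).

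Among the receptors, FBXW7, which recognises phosphorylated cyclin E, was the highest F-box gene at 27.7 ± 12.0 FPKM (SD, n = 29), and FBXO5, an inhibitor of the anaphase-promoting complex, followed with 13.9 ± 4.70 FPKM. The 9 F-box genes tested had list medians of -0.26, -0.16 and -0.11. Between fertility groups 0 of them reached an unadjusted p of 0.05 in limma's test (4.14%, 8.67% and 4.41% of all genes did). For a different contrast between stages FBXO5 had an adjusted p = 0.548 (unadjusted p = 0.0286) in limma's F-test. The receptors that bind elongins B and C were led by LRR1 (26.5 ± 9.96 FPKM) and KLHDC2 (13.6 ± 4.83 FPKM), both CUL2 receptors. Of the 25 elongin receptors in the table, between 9 and 10 were tested per fertility comparison. None of these reached an unadjusted p of 0.05 in limma's test (4.14%, 8.67% and 4.41% of all genes did), and the medians were -0.10, -0.02 and -0.21.

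The BTB receptors of CUL3 were led by KBTBD8 (25.2 ± 10.9 FPKM, SD, n = 29) and SPOP (4.65 ± 3.42 FPKM). KLHL12, which guides ubiquitin to the COPII coat protein SEC31, was at 2.93 to 5.57 FPKM in HLO and 0.608 to 2.83 FPKM in LLO, without overlap, as were 0.432% of all genes tested there. Its log2 difference was 1.05 (SE 0.328, unadjusted p = 0.00676, adjusted p = 0.828 in limma's test). In medium follicles the difference was -0.96 (SE 0.409, adjusted p = 0.557), with 1.05 to 3.46 FPKM in HMO and 2.82 to 14.7 FPKM in LMO. The test for a different contrast between stages was not passed (unadjusted p = 0.00206, adjusted p = 0.256 in limma's F-test). The list medians were -0.20, -0.02 and -0.11. An unadjusted p of 0.05 in limma's test was reached by 2 of 11, 1 of 11 and 0 of 10 genes (4.14%, 8.67% and 4.41% of all genes).

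The receptors of DDB1 and CUL4 were led by DDA1 ENSCHIG00000005337, a small subunit that binds DDB1 (23.6 ± 17.4 FPKM, SD, n = 29), and DCAF13 (16.5 ± 13.6 FPKM). DDA1 had the lowest adjusted p of any list gene. It was at 28.3 to 71.6 FPKM in HMO and 10.4 to 16.1 FPKM in LMO, without overlap (1.7% of all genes), and the log2 difference was 1.79 (SE 0.331, unadjusted p = 0.000132, adjusted p = 0.0928 in limma's test), which did not pass the limit. For a different contrast between stages DDA1 had an adjusted p = 0.618 (unadjusted p = 0.0475) in limma's F-test. A second gene carries the symbol DDA1, so its level is uncertain. DET1 (log2 difference -1.11, unadjusted p = 0.0119), DCAF4 (-0.97, 0.0187) and DCAF11 (-0.45, 0.0153 in limma's test) went the other way between HMO and LMO. DET1 and DCAF11 had smaller p values than DDA1 in the F-test (unadjusted p = 0.00241 and 0.00282, adjusted p = 0.256 and 0.258). In it 3 of the 17 list genes had an unadjusted p under 0.05, beside 7.89% of all genes. DTL, the receptor of the replication factor CDT1, was at 3.09 to 8.62 FPKM in HLO and 6.75 to 22.0 FPKM in LLO (log2 difference -0.95, SE 0.435, adjusted p = 0.828), and PHIP was at 1.59 to 2.33 FPKM in HSO and 2.68 to 4.92 FPKM in LSO (log2 difference -0.63, SE 0.247, adjusted p = 0.880), without overlap, where 2.05% of all genes had none. The list medians were -0.22, -0.20 and -0.07. An unadjusted p of 0.05 in limma's test was reached by 1 of 15, 4 of 15 and 1 of 16 genes (4.14%, 8.67% and 4.41% of all genes).

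The HIF axis, on which VHL acts, was led by CA9, a carbonic anhydrase known as a HIF target, at 16.0 ± 15.4 FPKM (SD, n = 29) and by the prolyl hydroxylase EGLN2 at 8.87 ± 4.67 FPKM. CA9 was at 7.82 to 52.5 FPKM in HMO and 1.07 to 9.85 FPKM in LMO. The groups overlapped, and the log2 difference was 2.37 (SE 0.555, unadjusted p = 0.000965, adjusted p = 0.157 in limma's test). ADM, another gene of the list, went the other way, with a log2 difference of -0.69 (SE 0.279, unadjusted p = 0.0285, adjusted p = 0.522). For a different contrast between stages CA9 had an adjusted p = 0.299 (unadjusted p = 0.00488) in limma's F-test. ADM had an adjusted p = 0.565 (unadjusted p = 0.0324) in the same test. The list medians were -0.10, -0.08 and -0.00430 on the log2 scale. An unadjusted p of 0.05 in limma's test was reached by 0, 2 and 0 of the 11 genes tested (4.14%, 8.67% and 4.41% of all genes).

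**Figure D5:**
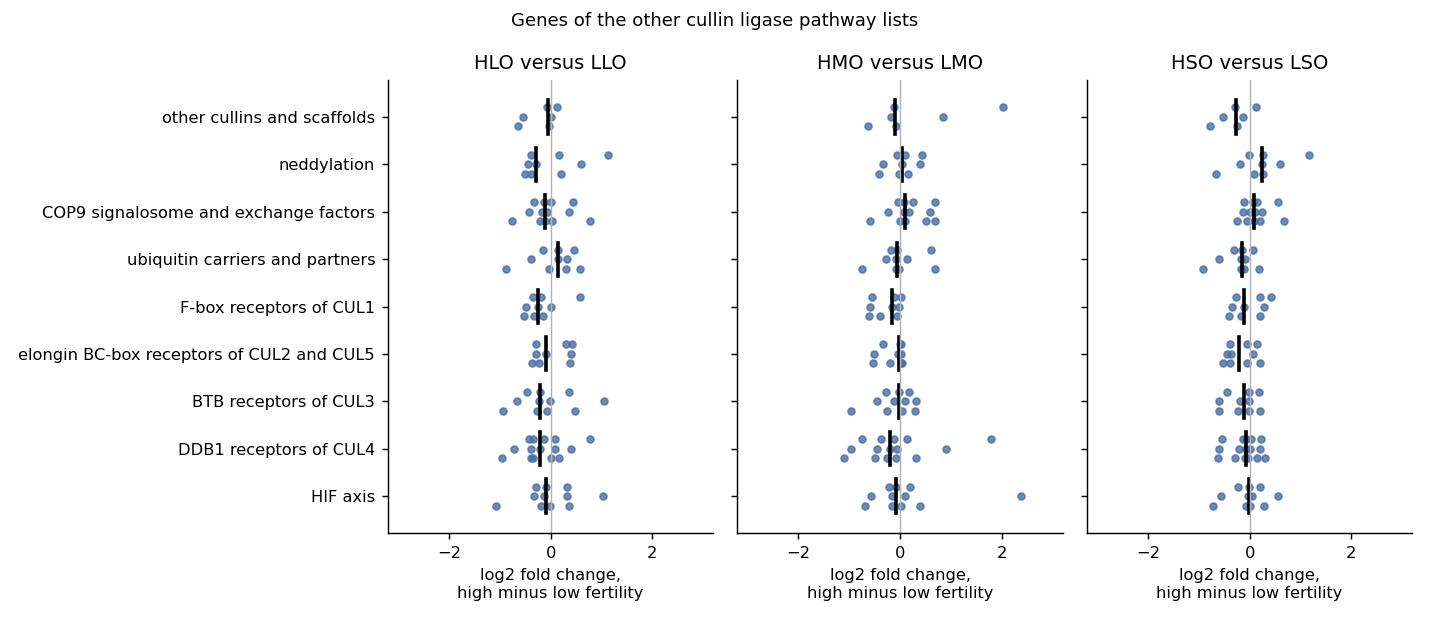
Each point is the log2 fold change of 1 tested gene, high minus low fertility, in 9 lists by role, and the black bars are list medians. The medians lie between -0.28 and 0.24, and single genes such as CA9 (2.37) and DDA1 (1.79) lie apart in medium follicles without passing the adjusted p of 0.05.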

How the data were processed

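RNA of goat oocytes was sequenced after oligo(dT) selection in 29 samples. The authors retained uniquely placed reads with few mismatches and took out duplicates by picard. With Cufflinks and the Ensembl annotation they then computed FPKM, which were deposited as 1 table. The aligner and genome build are not given in the sources used here, so no coordinates are printed, and the table holds no counts, so it does not give the depth behind a value; the paper's supplementary counts and mapping numbers were not used here. Columns were matched to samples by name, and 1 column of per-sample values had no matching sample and was not used.

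Groups were compared by limma 3.58.1 in R 4.3.3 with a trend on log2(FPKM + 1), which understates changes of low genes, for all genes that exceeded 0.5 FPKM in 4 or more samples of a comparison, with Benjamini-Hochberg adjustment over all of them. Stages were compared over all samples with fertility as a covariate, and the interaction from 6 group means. The procedure was tested on simulated data. Alternatives were other pseudocounts, filters, scalings, array weights, a replicate block, 1 fit over all samples, the exact Wilcoxon test and each sample left out. The members and lists were chosen with earlier results of these data known. From the other pathway lists, the 2 genes of highest mean FPKM and, per fertility comparison, the gene of smallest unadjusted p under 0.05 were named. The interaction values of named list genes with an unadjusted p under 0.05 were added after they were seen. So were the values of DET1, DCAF4, DCAF11 and ADM, which went against those of DDA1 and CA9. RefSeq gene names (assembly ARS1.2) were matched by the NCBI gene number in the descriptions. Python 3.11.15, numpy, pandas and matplotlib were used for levels and figures.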

Additional observations from a re-analysis of the deposited data

Results flagged for a closer look

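Of 78 sets of samples looked at, 13 genes in 6 groups, 7 had a sample far from the others of its group by Dixon's 95% limit. That limit flags about 1 in 20 sets of normal values. Here it was applied to unlogged FPKM, and the 4 SKP1 genes vary together, so the 7 cannot be set against that rate. In LLO, replicate 4 was at 67.2 FPKM of TCEB2 ENSCHIG00000024274 where the next was at 0.269 FPKM. Also in LLO, RBX1 was at 1831 FPKM in replicate 3 against 755 FPKM for the next, and replicate 5 stood out with 12.5 FPKM of SKP1 ENSCHIG00000013914 (next 4.27 FPKM) and 9.50 FPKM of CUL5 (next 5.15 FPKM). In LMO replicate 2, the sample with the lowest FPKM sum, DDB1 was at 1.17 FPKM where the next was at 0.504 FPKM. CUL3 in HLO replicate 1 was at 8.74 FPKM (next 3.66 FPKM), and TCEB1 ENSCHIG00000015198 in LSO replicate 3 was at 1806 FPKM (next 1339 FPKM). All 7 were the highest sample of their group.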

How the results depend on the processing

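No member counted passed an adjusted p of 0.05 under any alternative run. TCEB2 ENSCHIG00000024274 was not assessed between HMO and LMO, between stages or for the interaction. Over the limma fits of the fertility comparisons the lowest adjusted p of a member was 0.0762. Over all genes the number past that limit ran from 0 to 1011 between HMO and LMO, and from 0 to 2 in both other fertility comparisons. At an unadjusted p of 0.05, 0 to 2 members passed in each fertility comparison. Of all genes, 152 to 1372 passed in large, 398 to 3341 in medium and 153 to 788 in small follicles. Of 36 log2 differences, 11 changed sign under some alternative, and the largest of these was 0.58 in the analysis as reported. With array weights the differences of HMO and LMO became -1.04, -0.68, -0.89 and -0.34 for SKP1 ENSCHIG00000002251, ENSCHIG00000013914, ENSCHIG00000015329 and ENSCHIG00000016462 and -0.0635 for CUL5, that of TCEB1 ENSCHIG00000015198 in large follicles became 0.0681, and that of CUL3 in small follicles 0.0491. Median-of-ratios factors gave 0.11 for TCEB1 in large and 0.000719 for CUL5 in small follicles, and quantile normalization gave -0.13 for CUL1 ENSCHIG00000010719, -0.0154 for TCEB1 and 0.0187 for CUL5 in small follicles. The cause was not tested.

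Leaving out 1 sample at a time gave ranges through 0 in large follicles for TCEB1 (-0.133 to 0.0726) and SKP1 ENSCHIG00000016462 (-0.336 to 0.0381). In medium follicles it did so for SKP1 ENSCHIG00000002251 (-0.29 to 0.80), ENSCHIG00000013914 (-0.0537 to 0.593) and ENSCHIG00000015329 (-0.23 to 0.95), which turned negative only without LMO replicate 2, and for ENSCHIG00000016462 (-0.0344 to 0.431). In small follicles the ranges were -0.19 to 0.25 for CUL1 ENSCHIG00000010719, -0.22 to 0.19 for CUL3, -0.18 to 0.12 for CUL5 and -0.0306 to 0.173 for TCEB1. Between HMO and LMO, the contrast it was picked from, the difference of TCEB2 ENSCHIG00000024274 ran from 3.52 to 4.65. That range supports nothing on its own. Between HSO and LSO the difference ran from -3.88 to -3.08, where the gene could not be tested without LSO replicates 1 to 4. A pseudocount of 0.1 gave -5.06 there. In large follicles that of elongin B ran from 0.80 to 1.55, that of CUL5 from -1.09 to -0.74 and that of RBX1 from 0.33 to 0.95, and in medium and small follicles that of RBX1 ran from 0.12 (without LMO replicate 2) to 0.57 and from 0.0173 (without HSO replicate 3) to 0.42.

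The labels do not say that a replicate number marks a shared animal or batch, and the samples were not treated as paired. Over 14 pairs of same-numbered samples the correlation of their deviations ran from -0.481 to 0.709. It was over 0.1 in 10 of the 14, among them all pairs of replicates 3 and 5, and 7 of the 14 correlated best with their own number, a hint from the data and not from the design. The replicate block raised the number of all genes past the adjusted p from 6 to 127 between HMO and LMO and from 0 to 70 for the interaction. With the replicate block 0 of the members counted passed the adjusted p, and CUL1 ENSCHIG00000010719 in small follicles changed to -0.0764. The depth of the libraries is not in the table, which limits what can be said of genes under about 0.5 FPKM, such as VHL, CUL2 and DDB1.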
